A study of Rattus norvegicus with 6 samples.

Results

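miR-221 and miR-222 are a pair of neighbouring miRNAs, and the 4 rows examined here are both arms of both precursors (rno-miR-221-3p, rno-miR-221-5p, rno-miR-222-3p and rno-miR-222-5p) among the 867 miRNA sequences of the table. The rat prefix rno is left out below. They were chosen by name and not by a rule on their levels, but earlier results of these data were known at that point. The word vascular comes from what is known of them and not from any measurement in these data. The libraries were made from circulating exosomes, small membrane vesicles released by cells, isolated from the serum of male Sprague-Dawley rats aged 6 to 8 weeks on a normal diet. NXT-Exo came from animals gavaged with Naoxintong Capsule (NXT), a polyherbal Chinese medicine, at 1000 mg/kg/d, and Ctl-Exo from animals that received saline at 5 mL/kg/d. There were 5 NXT-Exo libraries (replicates 1 to 5) and 1 Ctl-Exo library (replicate 5). The sample titles give 7 days of gavage for every library. The treatment field conflicts with them, since it reads 7, 8, 9, 10 and 11 days in the order of NXT-Exo 1 to 5, and 11 in Ctl-Exo 5. Each treatment group held 10 rats. Whether a library came from 1 rat or from pooled serum is not stated, and the serum volume given for the exosome preparation is larger than the blood volume drawn from 1 rat, so the spread below is that between libraries and may be technical.

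A miRNA is cut from a hairpin precursor that yields a 5p and a 3p arm. The arm that stays in the silencing complex pairs with messenger RNAs mainly through its seed, bases 2 to 8 from the 5′ end. miR-221 and miR-222 are made from a shared primary transcript and are known from both layers of the vessel wall. In endothelial cells they repress the stem cell factor receptor Kit and restrain angiogenic behaviour, and in vascular smooth muscle cells they repress the cell cycle inhibitor Cdkn1b and favour proliferation. They are also expressed in blood cells, so serum reads cannot be assigned to a cell type, and in bulk exosome RNA fewer vesicles from a cell type cannot be told apart from fewer copies per vesicle.

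The sequences show why the pair is treated as 1 family and why the rows with other names matter here. All 4 rat sequences were identical to those of RefSeq on assembly GRCr8, where both precursors lie on the plus strand of chromosome X, 458 bases apart, with no annotated gene between them. The precursors are given with both mature arms in capitals, 5′ to 3′.
Mir222 (chrX:6022621-6022723): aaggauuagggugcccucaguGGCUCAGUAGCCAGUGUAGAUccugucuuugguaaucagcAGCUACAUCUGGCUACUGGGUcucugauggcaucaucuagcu
Mir221 (chrX:6023182-6023290): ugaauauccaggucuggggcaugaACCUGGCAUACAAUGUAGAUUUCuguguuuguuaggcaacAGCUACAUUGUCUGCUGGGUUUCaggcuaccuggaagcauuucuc

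The mature sequences are set in lower case with the seed in capitals, written as RNA where the table has T for U. The 3p arms of both precursors begin with the same 8 bases and therefore have the same seed, which no other rat mature miRNA of the RefSeq table has. Compared position by position, 11 of the 21 positions of miR-222-3p match miR-221-3p, the 8 shared first bases included. This count allows no gap, so bases that both share at shifted positions further along are not counted. The 5p arms have seeds of their own.
miR-221-3p: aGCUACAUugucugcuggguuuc
miR-222-3p: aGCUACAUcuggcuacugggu
miR-221-5p: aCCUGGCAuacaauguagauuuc
miR-222-5p: gGCUCAGUagccaguguagau

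A further 4 rows carry a miR-221 or miR-222 name without the rat prefix. Another 2 predicted rows, of 3 and 8 reads, have the seed of miR-221-5p. miR-222-y starts at the same base as miR-222-3p and runs 3 bases (cuc) further along the rat Mir222 precursor, so it is a longer form of the same arm with the same seed. miR-221-x is miR-221-5p with 3 more bases of its precursor, and miR-222-x lies 3 bases downstream of miR-222-5p and so has another seed. miR-221-y is as long as miR-221-3p but differs from the rat precursor at U22C and C23U, counted from the 5′ end of the mature sequence. Only miR-222-y was abundant. It had 1222 reads over the 6 libraries, close to the 1298 of miR-222-3p and the 1123 of miR-221-3p, whereas miR-221-y had 28, miR-221-x 6 and miR-222-x 3.
miR-222-y: aGCUACAUcuggcuacugggucuc
miR-221-y: aGCUACAUugucugcuggguucu
miR-221-x: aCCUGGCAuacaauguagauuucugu
miR-222-x: uCAGUAGCcaguguagauccu

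**Figure D1:**
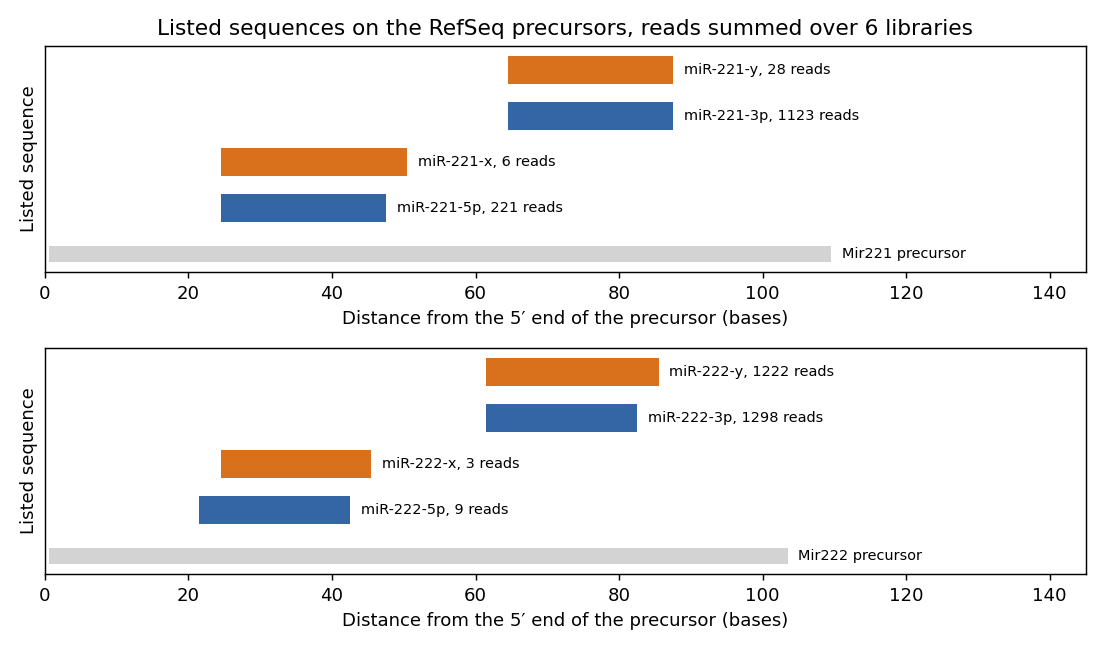
Position of the 8 listed sequences on the Mir221 and Mir222 precursors, with the distance from the 5′ end of the precursor in bases on the horizontal axis; rat-named rows are blue, rows without the rat prefix are orange, and the reads are sums over 6 libraries. miR-222-y shares its start with miR-222-3p, ends 3 bases later and has nearly as many reads (1222 against 1298).

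The NXT-Exo libraries held 1168686 to 3781718 listed reads, and Ctl-Exo 5 held 1890463. Levels are CPM, the reads relative to the listed total of a library with edgeR's TMM scaling. As a read spans a whole miRNA, no division by length is needed. The red blood cell markers, miR-486, miR-451-5p and both arms of miR-144, summed to 157715 to 260257 CPM over the NXT-Exo libraries, and Ctl-Exo 5 had 210386 CPM (4 of 4 markers with reads). The white blood cell and platelet markers summed to 20713 to 24466 CPM and 25685 CPM (5 of 6 with reads, miR-197-3p without), and those of endothelium, both arms of miR-126a, to 1154 to 1498 CPM and 1252 CPM. The smooth muscle markers miR-143-3p and miR-145-5p summed to 7371 to 12035 CPM and 12042 CPM, the 4 liver markers to 10894 to 24383 CPM and 7596 CPM, and the 4 muscle markers to 95.4 to 156.2 CPM and 114.3 CPM. The part of these cell types in the results below was not tested.

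The 4 arms were minor constituents of the vesicles, and their summed level differed between the groups by less than the spread of the libraries. They had 2651 reads, or 0.017% of all listed reads. The summed level was 140.0, 181.0, 148.4, 180.6 and 196.9 CPM in NXT-Exo 1 to 5, a mean of 169.4 ± 24.1 CPM (SD, n = 5), and 171.0 CPM in Ctl-Exo 5. Ctl-Exo 5 thus lay inside the NXT-Exo range. The log2 difference (NXT-Exo mean minus Ctl-Exo 5, after adding 1 CPM) was -0.01 against an SD of 0.21 between the NXT-Exo libraries. Because only 1 Ctl-Exo library was used, which gives no spread of its own, no p-value is given for any difference. Each difference is set beside the SD of the NXT-Exo libraries and the counting interval of Ctl-Exo 5.

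miR-222-3p, the arm of miR-222 that carries the shared seed, was the most abundant of the 4. It had 210, 279, 174, 124 and 364 reads in NXT-Exo 1 to 5 and 147 in Ctl-Exo 5. These correspond to 70.0, 84.0, 78.2, 96.9 and 94.9 CPM against 80.0 CPM. The control's 95% Wilson interval ran from 68.1 to 94.1 CPM and, like all intervals and floors here, covers counting error only. The control lay in the middle of the treated libraries, with 3 of them above it and 2 below. The NXT-Exo mean was 84.8 ± 11.3 CPM (SD, n = 5), or 0.08 above Ctl-Exo 5 on the log2 scale where the libraries' SD was 0.19. By mean level it ranked 179th of the 865 miRNAs with reads.

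miR-221-3p, its partner with the same seed, had 188, 272, 113, 88 and 326 reads in NXT-Exo 1 to 5 and 136 in Ctl-Exo 5. Its level was 62.7, 81.9, 50.8, 68.8 and 85.0 CPM in these NXT-Exo libraries against 74.1 CPM (95% Wilson interval 62.6 to 87.6). NXT-Exo 3 was the lowest library and the only one outside this interval. Ctl-Exo 5 was exceeded by 2 of the treated libraries and was above the other 3. The mean of 69.8 ± 14.1 CPM (SD, n = 5) gave a log2 difference of -0.08, within the SD of 0.30, and the miRNA ranked 194th.

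miR-221-5p, the arm that is usually discarded, was several times lower. It had 22, 50, 36, 19 and 65 reads in NXT-Exo 1 to 5 and 29 in Ctl-Exo 5, or 7.33, 15.1, 16.2, 14.9 and 17.0 CPM against 15.8 CPM (95% Wilson interval 11.0 to 22.7 CPM). In NXT-Exo 1 it stood apart at the low end, and the other 5 libraries lay close together. The NXT-Exo mean of 14.1 ± 3.86 CPM (SD, n = 5) differed from Ctl-Exo 5 by -0.16 on the log2 scale, less than the SD of 0.46. Without NXT-Exo 1 the difference was -0.002.

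miR-222-5p was at the limit of detection. It had 7 reads in NXT-Exo 3, 2 in Ctl-Exo 5 and 0 in the other 4 libraries. Counts of 0 allow up to 3 reads, which is 0.782 to 2.35 CPM depending on the NXT-Exo library and 1.63 CPM in Ctl-Exo 5. The mean of 0.629 CPM in NXT-Exo and the 1.09 CPM of Ctl-Exo 5 are below these limits, so no fold is given and a difference between the groups was not detectable at this depth.

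**Figure D2:**
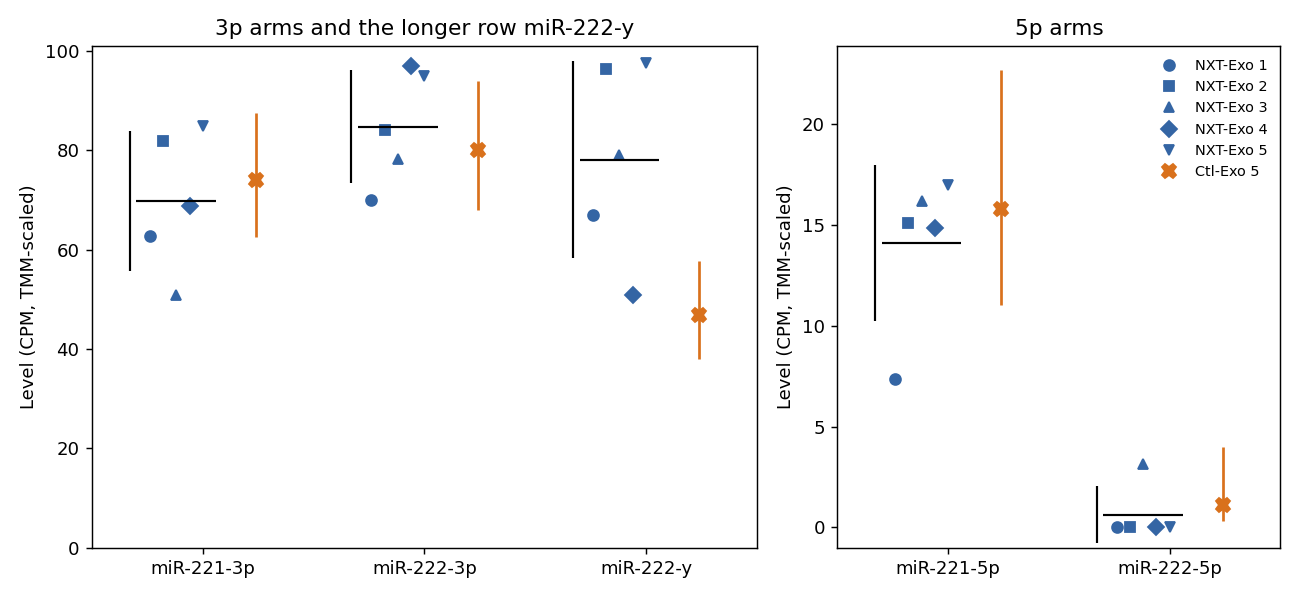
Level (CPM, TMM-scaled) of the 3p arms and of miR-222-y (left) and of the 5p arms (right) in each library; blue symbols are NXT-Exo 1 to 5, horizontal lines their mean, black vertical lines ± 1 SD, and orange crosses Ctl-Exo 5 with its 95% Wilson interval. Ctl-Exo 5 lies among the NXT-Exo libraries for miR-221-3p (74.1 CPM), miR-222-3p (80.0 CPM) and miR-221-5p (15.8 CPM) and below all 5 for miR-222-y (46.8 CPM).

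None of the 4 members was at least 2-fold apart between the groups with Ctl-Exo 5 outside the NXT-Exo range. Without NXT-Exo 3, miR-222-5p met this rule as lower in NXT-Exo, on 0 reads against 2 in Ctl-Exo 5, both under the floor of 3 reads. Over all 865 miRNAs with reads, this was the case for 99, or 11.4%, with 46 higher (5.32%) and 53 lower (6.13%) in NXT-Exo. For each of the 4 members Ctl-Exo 5 was inside the range of the NXT-Exo libraries, while it was outside for 30.3% of all miRNAs. Of the 467 miRNAs averaging 10 or more reads, 30 met the 2-fold rule. In this set Ctl-Exo 5 was below all NXT-Exo libraries for 101 and above all of them for 74.

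Unlike the shorter miR-222-3p, the longer row miR-222-y was lower in Ctl-Exo 5 than in every NXT-Exo library. It had 201, 320, 176, 65 and 374 reads in NXT-Exo 1 to 5 and 86 in Ctl-Exo 5, or 67.0, 96.4, 79.1, 50.8 and 97.5 CPM against 46.8 CPM (95% Wilson interval 37.9 to 57.8). Only NXT-Exo 4 was inside the control's interval. A control below all treated libraries was found for 15% of all miRNAs, and for 101 of the 467 averaging 10 or more reads. The NXT-Exo mean was 78.2 ± 19.9 CPM (SD, n = 5), 1.66-fold of the control and therefore below the 2-fold limit used above. On the log2 scale it was 0.73 higher, more than the SD of 0.39, and 0.64 to 0.85 higher when any 1 NXT-Exo library was left out.

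With both forms of the 3p arm counted together, miR-222 was also lowest in Ctl-Exo 5. The sum of miR-222-3p and miR-222-y was 137.0, 180.4, 157.4, 147.7 and 192.5 CPM in NXT-Exo 1 to 5 and 126.9 CPM in Ctl-Exo 5. Every NXT-Exo library was higher, with a mean of 163.0 ± 23.0 CPM (SD, n = 5). The log2 difference was 0.36, 1.28-fold, against an SD of 0.20. For all 4 rows with the shared seed, the sum was 202.7 to 279.3 CPM across NXT-Exo, where 203.6 CPM was found in the control. It was 0.20 higher on the log2 scale with an SD of 0.21, and 4 of the 5 treated libraries were above the control.

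Shares within a library do not depend on scaling. The longer form made up 48.9%, 53.4%, 50.3%, 34.4% and 50.7% of the reads of both forms in NXT-Exo 1 to 5, and 36.9% in Ctl-Exo 5. The 95% Wilson interval was 28.0 to 41.4% in NXT-Exo 4 and 31.0 to 43.3% in Ctl-Exo 5, whereas the lowest bound among the other 4 libraries was 44.1%. NXT-Exo 4 therefore sat with the saline library and apart from its own group, and the groups overlapped. The mean over NXT-Exo was 47.5 ± 7.53% (SD, n = 5), and the log2 ratio of the longer to the shorter form was 0.62 higher than in Ctl-Exo 5, with an SD of 0.44. When any 1 NXT-Exo library was left out, this difference was 0.53 to 0.81, and it was highest without NXT-Exo 4.

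The 2 libraries with the low share were also those with the fewest listed reads of the 6, and the part of depth in this result was not tested. A comparison chosen after these values were seen covered all 47 pairs in the table of a rat-named miRNA and a longer row without the prefix that begins with its whole sequence, given at least 50 reads for the pair in every library and 60 for the longer row in all. NXT-Exo 4 had the lowest share of the longer form among the NXT-Exo libraries in 27 of these pairs, and NXT-Exo 4 and Ctl-Exo 5 were both below the other 4 libraries in 14. Ctl-Exo 5 alone was below all 5 NXT-Exo libraries in 10 pairs and above all 5 in 9. The level of the longer row was lower in Ctl-Exo 5 than in all 5 NXT-Exo libraries in 13 pairs. The difference in mean share between NXT-Exo and Ctl-Exo 5 was 10.6 percentage points for miR-222, against a signed median of 0.113 over the 47 pairs. miR-222 had the largest absolute difference of them in percentage points. It was also 1 of only 2 pairs whose mean share of the longer form was within 20 percentage points of an equal share. A pair with a share of a few percent can hardly move as far in percentage points, and as a ratio some other pairs differed more.

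Between the partners, miR-222-3p exceeded miR-221-3p in every library. miR-221-3p made up 47.2%, 49.4%, 39.4%, 41.5% and 47.2% of the reads of both in NXT-Exo 1 to 5, and 48.1% in Ctl-Exo 5. The imbalance was small, and the 95% Wilson interval excluded an equal share in only 2 libraries, NXT-Exo 3 (33.9 to 45.1%) and NXT-Exo 4 (35.1 to 48.2%). The log2 ratio of miR-221-3p to miR-222-3p was 0.18 lower in NXT-Exo than in Ctl-Exo 5 (difference -0.18), less than the SD of 0.25. With the reads of miR-222-y counted for miR-222, the difference was -0.46. As ligation and amplification favour some sequences over others, a ratio between miRNAs is comparable across libraries but is not a ratio of molecules.

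In both precursors the 3p arm prevailed, and far more in miR-222 than in miR-221. For miR-221 the 3p share of both arms was 89.5%, 84.5%, 75.8%, 82.2% and 83.4% in NXT-Exo 1 to 5 and 82.4% in Ctl-Exo 5 (95% Wilson interval 75.9 to 87.5%). NXT-Exo 1 had the highest share and NXT-Exo 3 the lowest, and the control was in between. The NXT-Exo mean was 83.1 ± 4.92% (SD, n = 5), and the log2 ratio of the arms was 0.12 higher than in Ctl-Exo 5, with an SD of 0.51. Without NXT-Exo 1 this difference was -0.06. For miR-222 the share was 96.1% in NXT-Exo 3, 98.7% in Ctl-Exo 5, and in the other 4 libraries all reads were of the 3p arm, with a lower bound of 97.0 to 99.0%. The lowest of these shares was above the highest for miR-221.

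**Figure D3:**
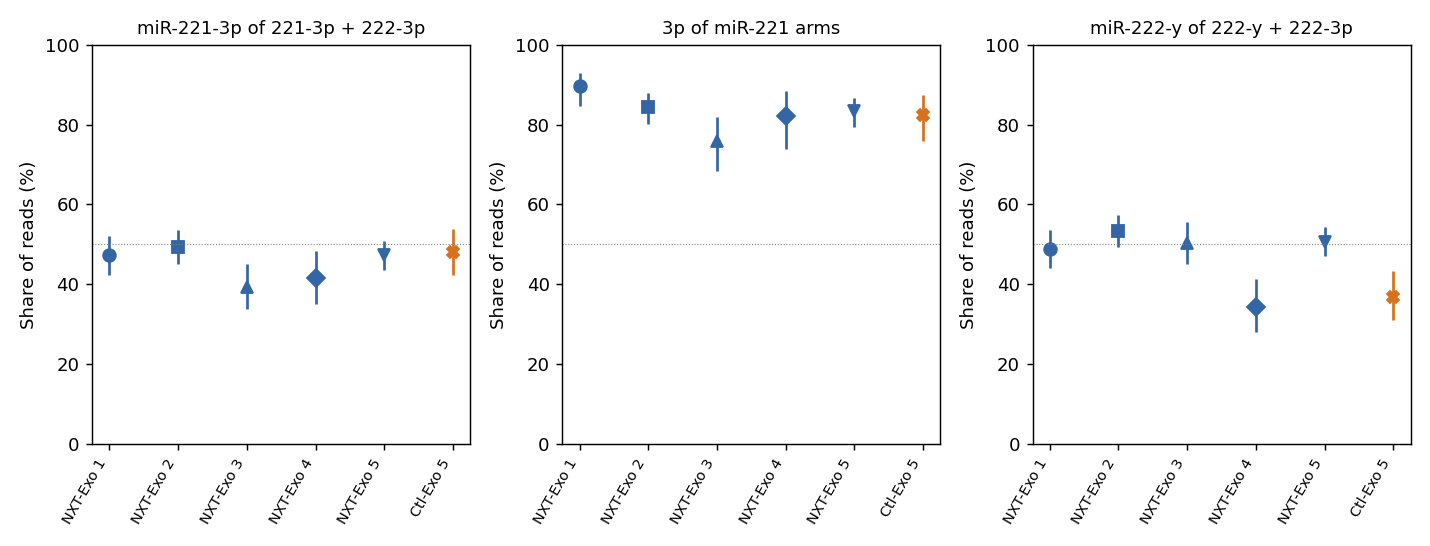
Shares of reads (%) within each library for miR-221-3p among both 3p arms (left), the 3p arm of miR-221 (middle) and the longer form miR-222-y among both forms of the miR-222 3p arm (right); blue symbols are NXT-Exo, orange crosses Ctl-Exo 5, bars 95% Wilson intervals and the dotted line equal shares. In the right panel NXT-Exo 4 (34.4%) and Ctl-Exo 5 (36.9%) lie below the other 4 libraries (48.9 to 53.4%).

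The order of mean levels was miR-222-3p, miR-221-3p, miR-221-5p and miR-222-5p. The ranges of the first 2 overlapped, while miR-221-5p was below both 3p arms, and miR-222-5p below miR-221-5p, in every library. The spread of miR-222-3p between NXT-Exo libraries was a CV of 13.3%, above the 7.16% that counting error alone gives. Of the 87 miRNAs with a mean read number within a factor of 2 of its own, 21 had a lower CV. For miR-221-3p the CV was 20.1% (counting error 7.69%), and 49 of 85 such miRNAs had a lower one. For miR-222-y it was 25.4% (counting error 7.06%), with 69 of 83 lower. The longer form was thus the most variable of the 3 rows with the shared seed and over 100 reads on average.

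The miRNAs that ran most nearly parallel to the pair were sought among the 228 others averaging 100 or more reads, as those whose log2 ratio to the member had the lowest SD over the 6 libraries. Closest to miR-222-3p were miR-149-5p (SD 0.07), miR-181a-1-3p (0.08) and miR-27b-3p (0.08). Closest to miR-221-3p were miR-199a-5p (0.15), miR-150-3p (0.15) and miR-29b-3p (0.16). The partners were less close to each other, with an SD of 0.23, so that miR-222-3p was 15th for miR-221-3p and miR-221-3p was 81st for miR-222-3p. miR-222-y was 212th for miR-222-3p, with an SD of 0.47 that was above the median of 0.27 over all 228. These ranks describe 6 libraries and favour miRNAs that vary little.

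Other miRNAs known from endothelium or vascular smooth muscle were mostly less than 2-fold apart as well. All 30 on the list had reads. The NXT-Exo mean was above the control for 11 and below it for 19, against 528 and 337 over all 865 miRNAs. With an average of 10 or more reads required, the numbers were 11 and 18 on the list, against 253 and 214 over all. Of the list, 1 was 2-fold higher with Ctl-Exo 5 outside the range, against 5.32% of all miRNAs, and none was 2-fold lower (6.13%). Among the 467 miRNAs averaging 10 or more reads, 22 were 2-fold higher by this rule and 8 were 2-fold lower. The median log2 difference was -0.12 on the list and 0.16 over all 865 miRNAs. For miRNAs averaging 10 or more reads it was -0.12 on the list (29 miRNAs) and 0.03 over all (467 miRNAs).

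The 3 most abundant of the list were miR-92a-3p, a member of the miR-17-92 cluster that restrains angiogenesis, and miR-23a-3p and miR-27b-3p of the angiogenic miR-23/27 clusters. The NXT-Exo level of miR-92a-3p was 56805 ± 9129 CPM (SD, n = 5), against 54461 CPM. miR-23a-3p was 34790 ± 6041 CPM (SD, n = 5) and 38069 CPM, and miR-27b-3p was 13935 ± 1638 CPM (SD, n = 5) and 14375 CPM. These levels were above those of the miR-221 and miR-222 arms by factors of more than 100, and none of the 3 differed by more than its SD.

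Of the list, miR-31a-5p and miR-195-5p had the largest log2 differences upward, and miR-143-5p and miR-155-5p downward, among those averaging 10 or more reads. In NXT-Exo, miR-31a-5p was 20.8 ± 6.42 CPM (SD, n = 5), whereas Ctl-Exo 5 had 6.53 CPM from 12 reads, so the treated mean was 1.53 higher on the log2 scale and all 5 libraries were above the control. miR-195-5p, of the miR-15/16 family that slows the cell cycle, was 14.7 ± 3.89 CPM (SD, n = 5) against 9.26 CPM. miR-143-5p, from a precursor active in smooth muscle, was 57.5 ± 12.7 CPM (SD, n = 5) against 104.0 CPM with all 5 libraries lower. miR-155-5p, an inflammatory miRNA of leukocytes and endothelium, was 6.69 ± 2.77 CPM (SD, n = 5) against 9.80 CPM, and 1 NXT-Exo library was above the control.

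**Figure D4:**
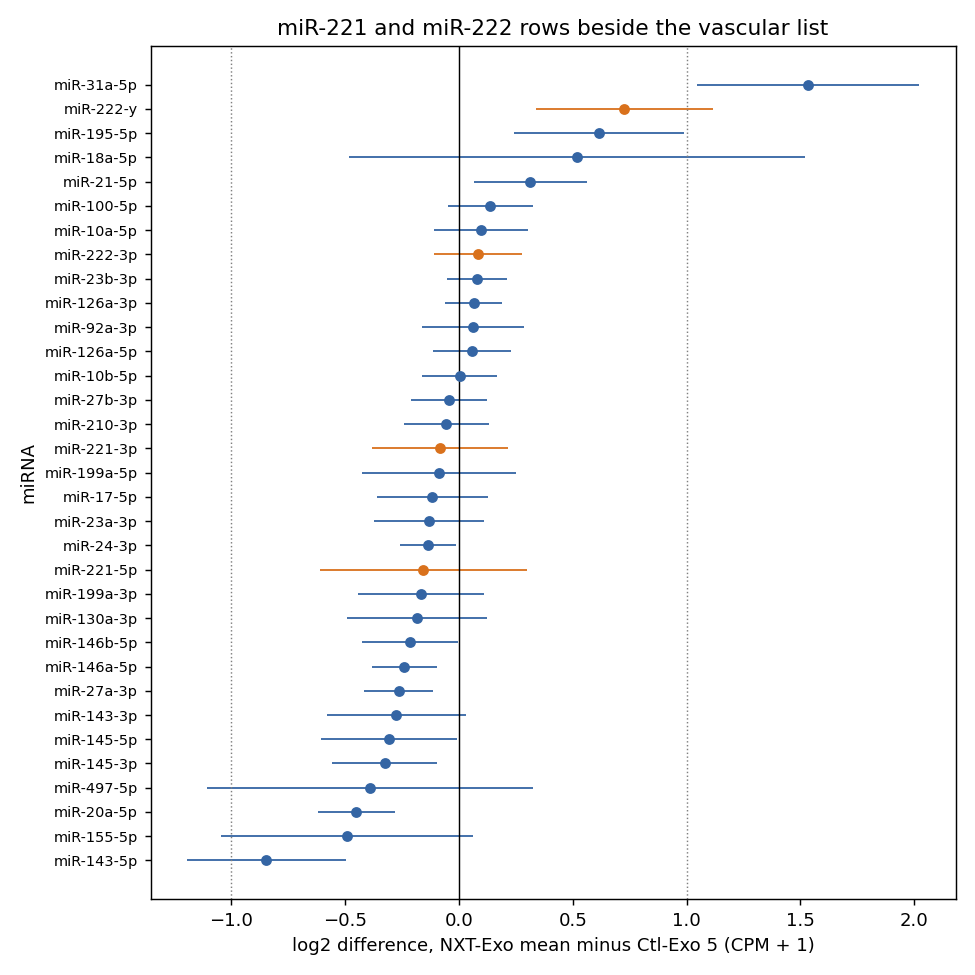
log2 difference (NXT-Exo mean minus Ctl-Exo 5, CPM + 1) of miR-221-3p, miR-222-3p, miR-221-5p and miR-222-y (orange) and of the 29 miRNAs of the vascular list averaging 10 or more reads (blue); bars are ± 1 SD of the 5 NXT-Exo libraries and dotted lines mark 2-fold. The rat-named members lie within 1 SD of 0 (-0.16 to 0.08), and miR-222-y (0.73) lies second from the top, below miR-31a-5p (1.53).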

How the data were processed

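Small RNA libraries (TruSeq Small RNA kit) were made from serum exosomes. The deposited values used here are unscaled counts per miRNA sequence, made by the authors after ACGT101-miR (version not given in the sources used here) had filtered out adapters, junk, repeats and structural RNAs such as tRNA, and the submitters' processing notes name genome build Rnor 6.0. The aligner and miRNA database release are not given in the sources used here. How reads were divided between miR-222-3p and miR-222-y is not given in the sources used here. Not used here were 8 further columns that name 4 other Ctl-Exo libraries, and the deposited TPM columns.

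Samples were grouped by their titles. From the counts, TMM factors (0.932 to 1.095) were calculated with edgeR 4.0.16 in R 4.3.3, and median-of-ratios factors with DESeq2 1.42.0 as an alternative, over the 865 miRNAs with reads. Other steps used Python 3.11.15, numpy 2.4.6, pandas 2.3.3 and matplotlib 3.10.9. The log2 difference is the log2 of (CPM + 1) of the NXT-Exo mean less that of the control. miRNAs counted as apart were those at 2-fold or 0.5-fold with Ctl-Exo 5 outside the NXT-Exo range. This rule was tried on simulated data with 8-fold changes only, so its recovery of changes near 2-fold was not tested. One Ctl-Exo library has no spread, so no test was made. Log ratios within a library used reads + 1, and intervals are 95% Wilson intervals. At these depths, 1 read in Ctl-Exo 5 was worth 0.544 CPM.

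Named miRNAs were the 4 members, other rows named miR-221 or miR-222, the 3 nearest to each 3p arm and, of the vascular list, the 3 most abundant and the 2 with the largest difference in each direction. The members, lists and rules were chosen with earlier results of these data known. The comparison of miR-222-y with miR-222-3p, the sums with miR-222-y and the 47 pairs were added after the values were seen. As alternatives, the pseudocount was set to 0.1 or 10, libraries were scaled by listed totals or DESeq2 factors, NXT-Exo was summarised by its median or by averaging log2 values, single NXT-Exo libraries were left out, and the 2-fold count was made for miRNAs averaging 10 or more reads or regardless of the range. RefSeq sequences (GRCr8) were used for the precursors.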

Additional observations from a re-analysis of the deposited data

Results flagged for a closer look

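Among 13 sets of 5 NXT-Exo values, 6 had a library whose gap to the next was above 0.71 of the whole range. This is the critical value for 5 samples, where chance gives about 1 in 20 for independent normal values. That rate does not hold for rows with reads in a single NXT-Exo library, where the gap is 1 of the range by construction. For miR-221-5p the gap was 0.782, with NXT-Exo 1 at 7.33 CPM and the others at 14.9 to 17.0 CPM. For the share of the longer form miR-222-y it was 0.763, with NXT-Exo 4 at 34.4% and the others at 48.9 to 53.4%. The other 4 rest on few reads. miR-222-5p (gap of 1 of the range) and the 3p share of miR-222 (gap of 1) both reflect the 7 reads of miR-222-5p in NXT-Exo 3 against 0 elsewhere. miR-222-x (gap of 1) had 3 reads in NXT-Exo 5 and 0 in the other NXT-Exo libraries, and miR-221-x (0.778) had 3 in NXT-Exo 4.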

How the results depend on the processing

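No paired analysis was made because a single Ctl-Exo library was used, which shares its number with NXT-Exo 5 alone. For 10 differences, 101 values were calculated under the alternatives. Of these, 98 moved by less than 1 SD between NXT-Exo libraries. The others were the log2 ratio of the arms of miR-222, 1.53 higher in NXT-Exo and 3.71 with a pseudocount of 0.1, which the pseudocount sets where miR-222-5p has 0 reads, and the values with the reads of miR-222-y added, 0.36 for miR-222-3p and -0.46 for the ratio of miR-221-3p to miR-222-3p. The sign changed in 7 values, all of differences smaller than the SD. Leaving 1 library out of 5 shifts a mean by less than 1 SD whatever its value. The values without each library could therefore hardly count as moved, and they add little to the 98.

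Leaving out each NXT-Exo library gave -0.16 to 0.01 for miR-221-3p, -0.23 to -0.002 for miR-221-5p, 0.03 to 0.14 for miR-222-3p, -0.07 to 0.05 for the summed level, 0.64 to 0.85 for miR-222-y and -0.14 to -0.07 for the median of the vascular list. For the log2 ratios it gave -0.25 to -0.10 for miR-221-3p to miR-222-3p, -0.06 to 0.29 for the miR-221 arms, 1.19 to 2.21 for the miR-222 arms, and 0.53 to 0.81 for miR-222-y to miR-222-3p. The 2-fold count (99) was 4 with a pseudocount of 10, 30 among the 467 averaging 10 or more reads and 166 regardless of the range, and 101 to 121 without each library. The share higher in NXT-Exo was 46 of 99, 3 of 4, 22 of 30 and 113 of 166 in the same order. No member was among them in these settings, except that miR-222-5p was counted as lower without NXT-Exo 3, which leaves 0 reads in NXT-Exo against 2 in Ctl-Exo 5, both under the floor of 3 reads. For the same reason its group difference is not given, and it was not recalculated under the alternatives. Depth limits the 5p arms most, and the use of a single Ctl-Exo library limits every comparison.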
